A study of Mus musculus with 8 samples.

Results

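The 9 genes described here encode the enzymes of the hepatic methionine cycle, of the methyl transfers that draw on it and of transsulfuration: Mat1a, Mat2a, Gnmt, Gamt, Pemt, Ahcy, Bhmt, Cbs and Cth. They were taken by name from the 55401 genes in each deposited table, all 9 were present once, and all 9 passed the filter on low counts that left 13908 genes for testing. The 8 libraries came from liver of C57BL/6J mice, 4 from mice given a short hairpin RNA against Tbl1xr1 (shTbl1xr1) and 4 from mice given a control hairpin (shNC). In both groups the hairpin was carried by an adeno-associated virus directed to hepatocytes. Partial hepatectomy, the removal of most of the liver, followed 4 weeks later, and liver was taken on day 2 of regeneration, so virus and surgery are common to all 8 libraries. For the mice no sex or age is given in the sources used here, nor is the promoter of the hairpins. The series examines Tbl1xr1, which encodes part of nuclear corepressor complexes, in liver regeneration.

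In the methionine cycle, methionine adenosyltransferase joins methionine to ATP to make S-adenosylmethionine, the methyl donor of most methylation reactions. Methyltransferases convert it to S-adenosylhomocysteine, a hydrolase splits that into adenosine and homocysteine, and homocysteine is either methylated back to methionine or passed through transsulfuration to cysteine, a building block of glutathione. The liver carries most of this flux. Mat1a marks the mature hepatocyte, whereas Mat2a is the form of other tissues and is known to be induced when hepatocytes divide.

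Libraries held 10895508, 10728583, 26976205 and 36720879 expected counts in shTbl1xr1 1 to 4, against 25811763 to 27537235 in shNC. The libraries shTbl1xr1 1 and 2, called the shallow pair below, also had the largest share of mitochondrially encoded counts, 11.3% and 14.8%, against 4.52% and 6.26% in the other shTbl1xr1 libraries and 4.96% to 7.34% in shNC. The targeted gene had 2.38, 2.07, 9.24 and 15.9 CPM (counts scaled to library size and by TMM) in shTbl1xr1 1 to 4, against 27.2, 35.9, 33.7 and 34.6 CPM in shNC 1 to 4, so the groups did not overlap and the shallow pair was also the pair with the least Tbl1xr1. Its log2 fold change was -2.07 (SE 0.54), and the adjusted p was 0.29 by edgeR's quasi-likelihood test. The TMM factors were 0.734 and 0.675 in the shallow pair, 1.15 and 1.10 in shTbl1xr1 3 and 4 and 1.08 to 1.16 in shNC. A lower factor raises every CPM of its library, so the CPM of the shallow pair are raised relative to scaling by library size alone. In the shallow pair the level of a gene relative to shNC followed its length. Over all tested genes the median log2 difference was 0.79 for the 2291 genes with a mean effective length under 1000 bases, 0.22 for 1000 to 2000 bases, -0.17 for 2000 to 3000 bases and -0.51 above 3000 bases. In shTbl1xr1 3 and 4 the same medians were -0.13, -0.06, 0.02 and 0.09. Gnmt, Gamt and Pemt have mean effective lengths of 796, 755 and 743 bases, and the other 6 members lie between 1422 (Cbs) and 2883 bases (Mat1a). The part of this trend in any difference below was not tested beyond a fit with the trend removed.

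Of the 9 members, Cth, the last enzyme of transsulfuration, had the smallest p, with 482 ± 46.2 CPM in shTbl1xr1 and 272 ± 28.5 CPM in shNC (SD, n = 4 each). It was the 1 member of 9 whose groups did not overlap, where 7.25% of all tested genes did not (3.88% higher and 3.37% lower). Bhmt, Gnmt, Gamt and Pemt had mean levels 1.62 to 1.95 times those of shNC, with their 2 highest values in the shallow pair. Mat1a, Mat2a, Cbs and Ahcy had mean levels between 0.820 and 0.948 times those of shNC, differences within the spread of the libraries. No member passed an adjusted p of 0.05 over all genes in edgeR's quasi-likelihood test (adjusted p between 0.196 and 0.931), where 0.0503% of all tested genes did (0.0431% higher and 0.00719% lower). Below an unadjusted p of 0.05 lay 4 of 9 members with higher levels (Cth, Gnmt, Bhmt and Gamt) and 0 with lower levels, where 7.9% of all tested genes were higher and 3.71% lower. Scaled by library size alone, the same counts were 1 higher (Cth) and 1 lower (Cbs), and on log2 TPM by limma they were 1 higher (Cth) and 2 lower (Ahcy and Cbs). The count of higher members was 1 (Cth) with shTbl1xr1 3 and 4 alone against shNC and 3 (Cth, Bhmt and Gnmt) with the length trend removed. The shares of 7.9% and 3.71% belong to the fit of all libraries with TMM. Shares of all tested genes under these other settings were not counted, so the member counts there have no background beside them. The median log2 fold change was 0.70 over the members and 0.01 over all tested genes. With the length trend removed the 2 medians were 0.30 and 0.02, by library size alone 0.28 and -0.27, and on log2 TPM 0.13 and -0.34.

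**Figure D1:**
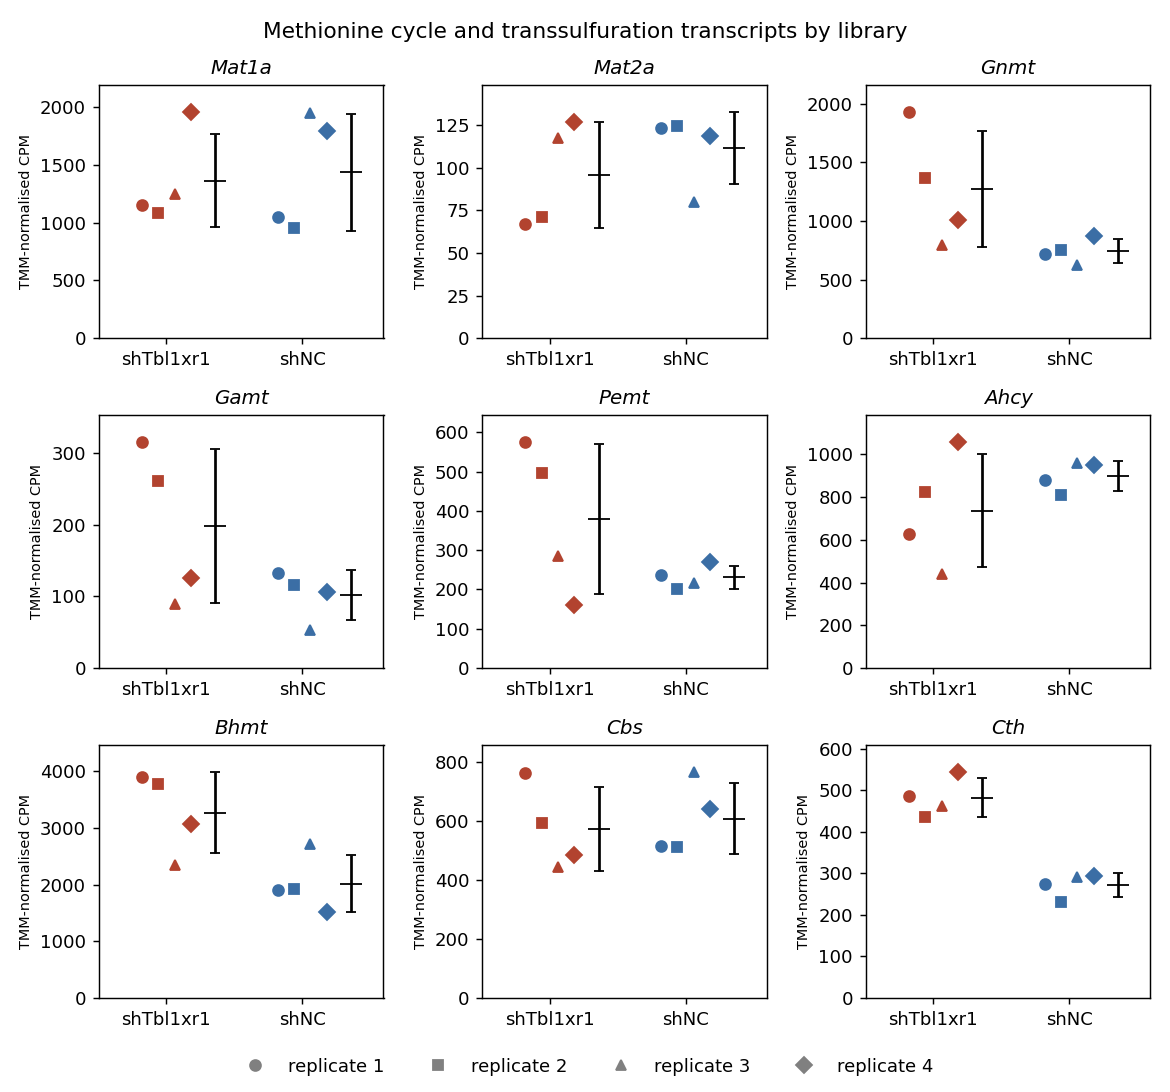
TMM-normalised CPM of the 9 members in each library, with shTbl1xr1 on the left of each panel and shNC on the right; symbols mark replicates 1 to 4 and the black bar gives mean ± SD (n = 4). Cth lay between 436 and 544 CPM in shTbl1xr1 and between 231 and 293 CPM in shNC, and the other 8 members overlapped between the groups. Of all tested genes, 7.25% did not overlap.

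Sequence upstream of the annotated start was read from RefSeq promoters on GRCm38.p6, which hold 7 of the 9 members (Mat1a and Cth have no entry). The 250 bases before the start are shown for Gnmt, Gamt, Bhmt and Mat2a. With the shallow pair alone against shNC, 5 members passed an edgeR adjusted p of 0.05 as higher (Gnmt, Gamt, Bhmt, Pemt and Cth). Mat2a was the 1 member that passed as lower, in a fit where 6094 of all genes passed. Capitals mark matches, on either strand, to the TATA box TATAAA, the CCAAT box, the GC box GGGCGG, the E-box CACGTG, the antioxidant response core TGACNNNGC or the ATF4 motif TGATGNAA. In the windows printed, only 2 GC boxes of Mat2a overlap. The windows lie on the minus strand at chr17:46729166-46729415 for Gnmt, chr10:80261013-80261262 for Gamt, chr13:93637759-93638008 for Bhmt and chr6:72439557-72439806 for Mat2a. GENCODE places the start of Bhmt further upstream than RefSeq does, at 93637961. Most of the printed Bhmt window, with its match, thus lies inside the gene as GENCODE places it.
Gnmt: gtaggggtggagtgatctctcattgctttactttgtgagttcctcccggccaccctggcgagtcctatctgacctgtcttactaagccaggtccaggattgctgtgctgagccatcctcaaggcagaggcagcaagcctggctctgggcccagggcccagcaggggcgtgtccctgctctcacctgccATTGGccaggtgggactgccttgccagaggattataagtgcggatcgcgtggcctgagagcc
Gamt: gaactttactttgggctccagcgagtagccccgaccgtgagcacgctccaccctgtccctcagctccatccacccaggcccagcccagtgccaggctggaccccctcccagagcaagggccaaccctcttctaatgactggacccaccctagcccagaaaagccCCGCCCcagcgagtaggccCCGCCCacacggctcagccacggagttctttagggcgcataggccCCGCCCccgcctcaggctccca
Bhmt: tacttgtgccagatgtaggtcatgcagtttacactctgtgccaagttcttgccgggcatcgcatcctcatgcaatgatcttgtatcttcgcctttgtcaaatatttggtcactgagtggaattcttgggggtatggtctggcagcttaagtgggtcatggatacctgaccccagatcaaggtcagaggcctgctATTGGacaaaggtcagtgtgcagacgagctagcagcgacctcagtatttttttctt
Mat2a: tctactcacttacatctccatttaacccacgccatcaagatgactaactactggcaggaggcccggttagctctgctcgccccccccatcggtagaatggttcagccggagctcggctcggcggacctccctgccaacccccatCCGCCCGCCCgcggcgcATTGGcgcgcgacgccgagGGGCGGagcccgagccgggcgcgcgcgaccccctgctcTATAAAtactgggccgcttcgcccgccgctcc
Gnmt and Bhmt each held 1 match, a CCAAT box in reverse (ATTGG). Its far end lies 62 bases before the RefSeq start in Gnmt and 56 bases before it in Bhmt. Gamt held 3 GC boxes (GGGCGG, all in reverse) and no CCAAT. Mat2a held a TATAAA that begins 32 bases before the start, 3 GC boxes and 1 CCAAT. Over 32851 promoter windows of the same length, 12.4% held TATAAA, 33.8% CCAAT, 32.7% GGGCGG and 6.02% CACGTG. The antioxidant response core (held by 10.2% of all windows) and the ATF4 motif (3.45%) were matched in 0 of the 8 member windows, a count that includes 2 starts of Pemt. These matches describe letters in the windows and were not tested for binding.

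S-adenosylmethionine synthesis is served by Mat1a and Mat2a. Mat1a (ENSMUSG00000037798.7, chromosome 14, 41105035 to 41124412, plus strand, mm10) had 1156, 1088, 1249 and 1960 CPM in shTbl1xr1 1 to 4, against 1052, 953, 1955 and 1793 CPM in shNC 1 to 4. The groups overlapped almost wholly, with a low and a high set of libraries in each. Between the groups the log2 fold change was -0.08 (SE 0.32, adjusted p = 0.931), and the sign turned to 0.02 with the length trend removed. Mat2a (ENSMUSG00000053907.10, chromosome 6, 72432799 to 72439558, minus strand) had 67.1, 70.8, 117 and 127 CPM in shTbl1xr1 1 to 4, against 123, 125, 80.0 and 119 CPM in shNC 1 to 4. Low values were those of the shallow pair and of shNC 3. Over all libraries the log2 fold change was -0.22 (SE 0.25, adjusted p = 0.717), with -0.70 (SE 0.19, adjusted p = 0.016) for the shallow pair alone against shNC and 0.13 (SE 0.20, adjusted p = 0.849) for shTbl1xr1 3 and 4 alone.

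Per length, in the authors' deposited TPM (a level corrected for transcript length and library size), Mat1a exceeded Mat2a in every library, by 5.53, 4.50, 9.46 and 13.3 times in shTbl1xr1 1 to 4, against 5.43, 6.87, 21.5 and 13.5 times in shNC 1 to 4. The ratio thus varied as much within shNC as within shTbl1xr1. It also depends on the effective length given to Mat2a, 960 and 874 bases in shTbl1xr1 1 and 2 and 1867 bases in shNC 1. In the remaining libraries that length was 2452 to 2568 bases. A shorter length raises the TPM of Mat2a and so lowers the ratio, and its part here was not tested. The 2 shNC libraries with the highest ratio, shNC 3 and 4, were also the 2 with the most Mat1a. Mat2b, the regulatory partner of the Mat2a protein, had 34.7 ± 6.72 CPM in shTbl1xr1 and 27.9 ± 2.88 CPM in shNC (SD, n = 4 each; log2 fold change 0.31, SE 0.17, adjusted p = 0.463). Its sign turned to -0.02 when libraries were scaled by size alone and to -0.20 on log2 TPM.

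Gnmt, Gamt and Pemt are methyltransferases that use S-adenosylmethionine. Gnmt (ENSMUSG00000002769.9, chromosome 17, 46725664 to 46729168, minus strand), glycine N-methyltransferase, disposes of excess S-adenosylmethionine in liver. It had 1931, 1370, 797 and 1011 CPM in shTbl1xr1 1 to 4, against 722, 754, 623 and 871 CPM in shNC 1 to 4. Libraries shTbl1xr1 1, 2 and 4 lay above every shNC library and shTbl1xr1 3 lay among them. A log2 fold change of 0.78 (SE 0.29; edgeR adjusted p = 0.405) over all libraries was 0.28 (SE 0.19) with shTbl1xr1 3 and 4 alone and 0.45 (SE 0.18) with the length trend removed. Scaled by library size alone it was 0.39 (SE 0.19), and on log2 TPM 0.18 (SE 0.20).

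Gamt (ENSMUSG00000020150.13, chromosome 10, 80258151 to 80261012, minus strand) makes creatine from guanidinoacetate. It had 315, 260, 89.3 and 126 CPM in shTbl1xr1 1 to 4, against 132, 116, 52.4 and 106 CPM in shNC 1 to 4. Only the shallow pair lay above shNC. At 0.96 (SE 0.42; edgeR adjusted p = 0.426) its log2 fold change was the largest of the 9, and it was 0.08 (SE 0.34) with shTbl1xr1 3 and 4 alone and 0.56 (SE 0.29) with the length trend removed. By library size alone the value was 0.515 (SE 0.312), and on log2 TPM 0.32 (SE 0.26).

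Pemt (ENSMUSG00000000301.16, chromosome 11, 59970614 to 60046489, minus strand) methylates phosphatidylethanolamine to phosphatidylcholine. It had 575, 496, 285 and 160 CPM in shTbl1xr1 1 to 4, against 237, 201, 216 and 270 CPM in shNC 1 to 4. Libraries shTbl1xr1 1 to 3 lay above every shNC library and shTbl1xr1 4 lay below every one. Over all libraries the value of 0.71 on the log2 scale (SE 0.36; edgeR adjusted p = 0.442) turned to -0.06 (SE 0.24) with shTbl1xr1 3 and 4 alone, and was 0.30 (SE 0.20) with the length trend removed. It was 0.28 (SE 0.25) by library size alone and 0.13 (SE 0.22) on log2 TPM. Relative to the median of tested genes under 1000 bases, the shallow pair exceeded shNC by 0.35 for Gnmt, 0.43 for Pemt and 0.78 for Gamt on the log2 scale.

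**Figure D2:**
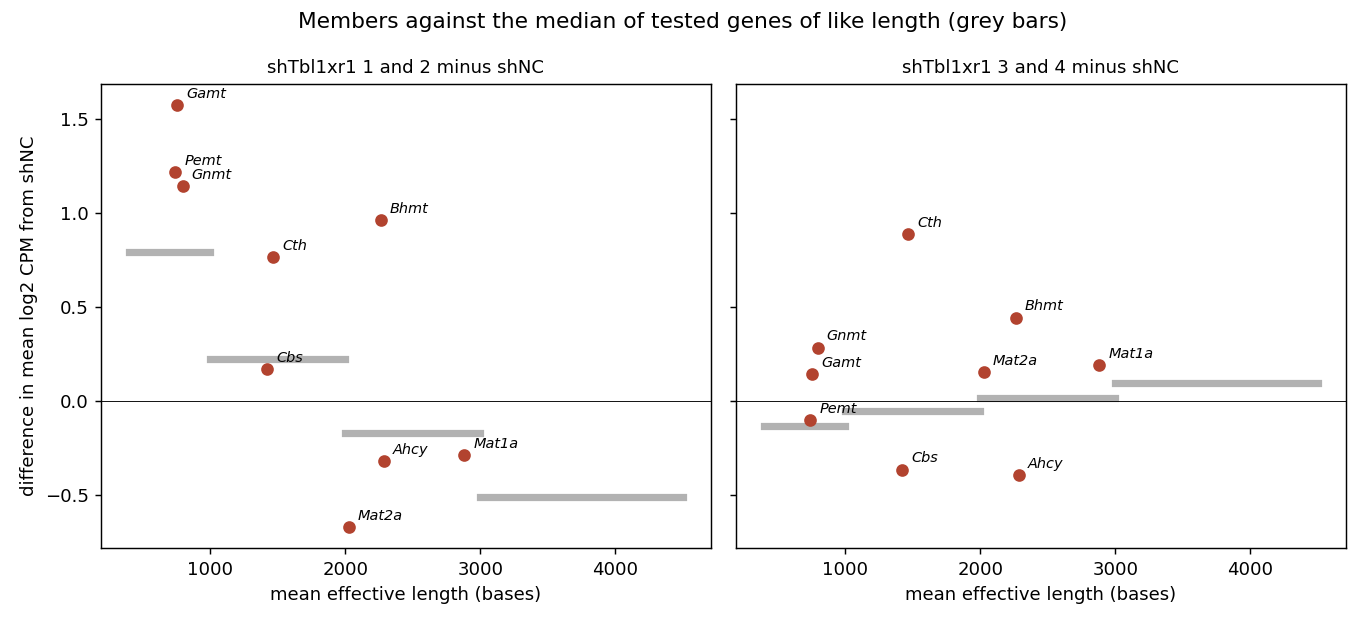
Difference in mean log2 CPM from shNC (y axis) against mean effective length in bases (x axis) for the 9 members, with the shallow pair (shTbl1xr1 1 and 2) on the left and shTbl1xr1 3 and 4 on the right; grey bars give the median of all tested genes in 4 length classes, the outer bars stand for classes with no outer limit. Gamt, Pemt and Gnmt sit at 1.58, 1.22 and 1.14 in the shallow pair, where genes under 1000 bases had a median of 0.79, and Cth sits at 0.89 in shTbl1xr1 3 and 4, where genes of its length had -0.06.

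Ahcy (ENSMUSG00000027597.15, chromosome 2, 155059310 to 155074497, minus strand) hydrolyses S-adenosylhomocysteine, an inhibitor of methyltransferases. It had 626, 824, 441 and 1058 CPM in shTbl1xr1 1 to 4, against 878, 811, 958 and 949 CPM in shNC 1 to 4. The shNC libraries were close together, while shTbl1xr1 1 and 3 lay below all of them and shTbl1xr1 4 above. The SD was 265 CPM in shTbl1xr1 and 68.9 CPM in shNC. Its log2 difference of -0.29 (SE 0.27; edgeR adjusted p = 0.650) kept its sign in all 21 alternatives tried, between -0.87 and -0.11.

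Bhmt (ENSMUSG00000074768.6, chromosome 13, 93616675 to 93637961, minus strand) methylates homocysteine with betaine and is abundant in hepatocytes. It had 3891, 3775, 2343 and 3065 CPM in shTbl1xr1 1 to 4, against 1901, 1925, 2711 and 1521 CPM in shNC 1 to 4. Libraries shTbl1xr1 1, 2 and 4 lay above every shNC library, and shTbl1xr1 3 lay below shNC 3. The log2 fold change was 0.70 (SE 0.28, adjusted p = 0.408). It was 0.42 (SE 0.25, adjusted p = 0.587) with shTbl1xr1 3 and 4 alone and 0.76 (SE 0.25, adjusted p = 0.215) with the length trend removed. By library size alone the value was 0.34 (SE 0.22), and on log2 TPM 0.18 (SE 0.245). Unlike the 3 short methyltransferase genes, Bhmt belongs to a length class (2000 to 3000 bases) whose median was lower in the shallow pair (-0.17), where Bhmt itself was 0.96 above shNC.

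Bhmt2, the paralog that lies beside Bhmt on chromosome 13 (93655720 to 93674302, minus strand) and uses S-methylmethionine, had 160 ± 18.6 CPM in shTbl1xr1 and 167 ± 31.3 CPM in shNC (SD, n = 4 each; log2 fold change -0.06, SE 0.18, adjusted p = 0.904). By TPM, Bhmt exceeded Bhmt2 by 21.5, 27.6, 14.5 and 17.97 times in shTbl1xr1 1 to 4, against 13.0, 12.3, 12.5 and 9.59 times in shNC 1 to 4, so all 4 shTbl1xr1 ratios lay above all 4 shNC ratios. This ratio was looked at after the values of both genes were seen, and no test was run on it.

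Transsulfuration runs through Cbs, which joins homocysteine to serine, and Cth, which splits the product cystathionine to cysteine. Cbs (ENSMUSG00000024039.15, chromosome 17, 31608894 to 31637238, minus strand) had 764, 595, 446 and 487 CPM in shTbl1xr1 1 to 4, against 515, 511, 767 and 642 CPM in shNC 1 to 4. No shTbl1xr1 library lay above the shNC range and shTbl1xr1 3 and 4 lay below it. The log2 fold change was -0.09 (SE 0.24, adjusted p = 0.888), with 0.16 (SE 0.20) for the shallow pair alone and -0.39 (SE 0.21) for shTbl1xr1 3 and 4 alone.

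Cth (ENSMUSG00000028179.12, chromosome 3, 157894248 to 157925077, minus strand) had 487, 436, 462 and 544 CPM in shTbl1xr1 1 to 4, against 274, 231, 291 and 293 CPM in shNC 1 to 4. Every shTbl1xr1 library lay above every shNC library, a separation shown by 7.25% of tested genes, 3.88% with shTbl1xr1 higher and 3.37% with shTbl1xr1 lower. The 4 shTbl1xr1 libraries held 3892, 3157, 14347 and 21949 counts of Cth and the shNC libraries 7081 to 8756, so counting error is small beside the spread. The log2 fold change was 0.83 (SE 0.17), at rank 59 of 13908 by p, with an adjusted p of 0.196. It differed little between the shallow pair (0.76, SE 0.14, adjusted p = 0.00251) and shTbl1xr1 3 and 4 (0.88, SE 0.16, adjusted p = 0.148), each against the same 4 shNC libraries. In the shallow pair fit 6094 genes passed in all. Cth passed in DESeq2 (adjusted p = 3.44e-06) and with 1 surrogate variable (adjusted p = 0.0404), and did not pass with the length trend removed (log2 fold change 0.75, adjusted p = 0.12) or with any 1 library left out (adjusted p between 0.0929 and 0.627). Its sign was positive in all 21 alternatives, with log2 fold changes between 0.53 and 0.88. By deposited TPM, Cth had 255, 228, 395 and 464 in shTbl1xr1 1 to 4, against 204, 191, 255 and 245 in shNC 1 to 4, a scale on which shTbl1xr1 1 and 2 lay within the shNC range and the groups overlapped.

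**Figure D3:**
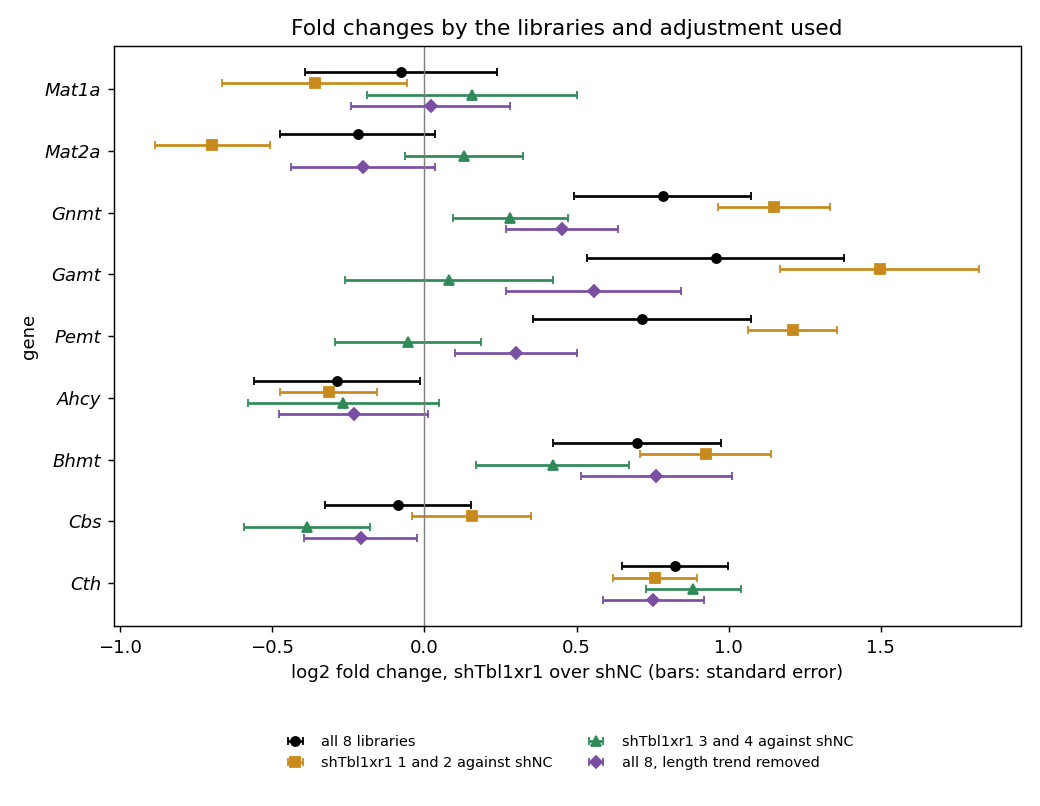
Log2 fold change of shTbl1xr1 over shNC (x axis, bars are the standard error) for the 9 members (y axis, in the order of their roles), from all 8 libraries, from the shallow pair alone, from shTbl1xr1 3 and 4 alone, and from all 8 with the length trend removed. Cth stays between 0.75 and 0.88 in the 4 fits, while Gamt ranges from 0.08 to 1.497 and Pemt from -0.06 to 1.21.

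Ordered by mean TPM, which sets genes of different length on one scale, the members ran in shTbl1xr1 from Gnmt (1385 ± 317), Bhmt (1312 ± 385), Mat1a (493 ± 335), Pemt (435 ± 119), Cbs (353 ± 155), Cth (335 ± 113), Ahcy (318 ± 219) and Gamt (210 ± 44.0) to Mat2a (55.7 ± 12.3). In shNC the order was Gnmt (1209 ± 176), Bhmt (1154 ± 340), Cbs (666 ± 257), Mat1a (658 ± 267), Ahcy (508 ± 66.2), Pemt (389 ± 55.3), Cth (224 ± 31.2), Gamt (172 ± 50.8) and Mat2a (61.5 ± 13.6) (SD, n = 4 each). Gnmt and Bhmt led in both groups and did not differ beyond their spread in either. In shTbl1xr1 the 6 neighbours from Mat1a down to Gamt did not differ beyond the larger SD of each adjoining pair. In shNC the same held only for Cbs with Mat1a and Mat1a with Ahcy, besides Gnmt with Bhmt.

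TPM depends on the effective length that the authors' RSEM run gave each gene, an average over its transcripts weighted by their estimated share. For most members that length was nearly constant, with the largest library value no more than 1.07 times the smallest for Mat1a, Gnmt, Bhmt, Ahcy and Gamt. For Mat2a it was 960, 874, 2502 and 2452 bases in shTbl1xr1 1 to 4, against 1867, 2500, 2500 and 2568 bases in shNC 1 to 4. The shallow pair stood far below the rest, and shNC 1 below the other shNC libraries. The largest value was 2.94 times the smallest, a ratio exceeded by 3.91% of tested genes, whose median was 1.16. GENCODE lists 10 transcripts for Mat2a.

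Cbs, with 12 listed transcripts, moved the other way. Its effective length was 1943, 1765, 1306 and 1280 bases in shTbl1xr1 1 to 4, against 1798, 1049, 1113 and 1124 bases in shNC 1 to 4. The shallow pair and shNC 1 had the longest values, and shTbl1xr1 3 and 4 lay above the remaining shNC libraries. Mean TPM of Cbs was 353 ± 155 in shTbl1xr1 and 666 ± 257 in shNC (SD, n = 4 each), a ratio that its CPM (573 ± 142 and 609 ± 122) did not show. For Cth the length was 1229, 1080, 1571 and 1569 bases in shTbl1xr1 1 to 4, against 1565 to 1574 bases in shNC. For Pemt it was 670 and 682 bases in the shallow pair and 759 to 770 bases in the other 6 libraries. Which transcripts account for these lengths is not shown by values per gene, and the part of depth or RNA quality was not tested.

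**Figure D4:**
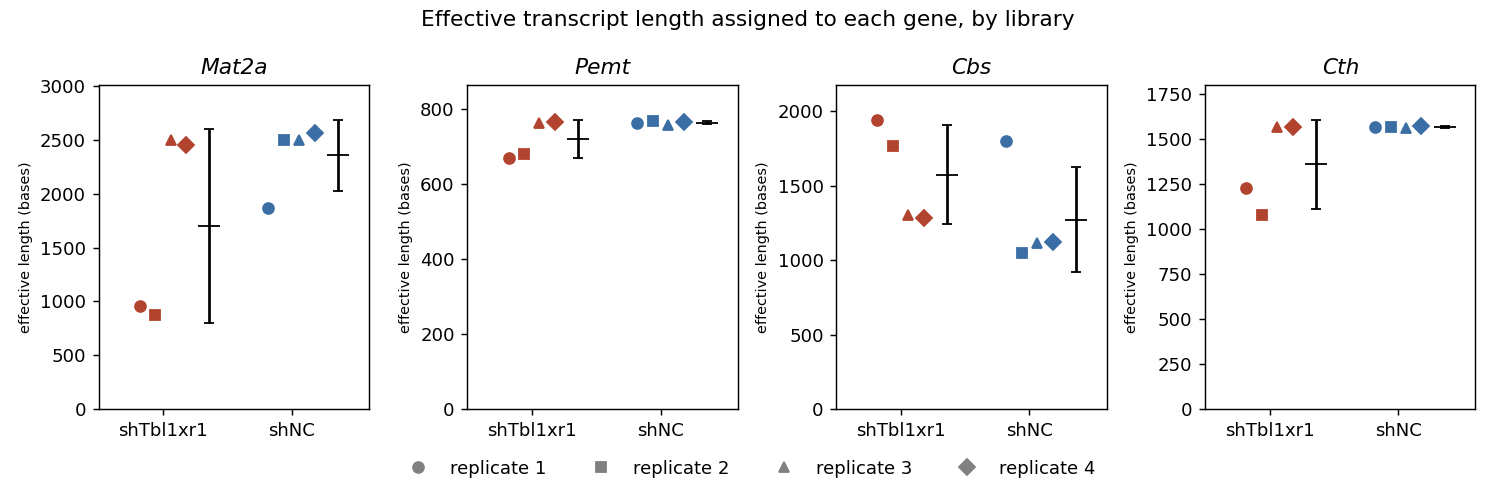
Effective length in bases assigned to Mat2a, Pemt, Cbs and Cth in each library (y axis), with shTbl1xr1 on the left and shNC on the right of each panel; symbols mark replicates 1 to 4 and the black bar gives mean ± SD (n = 4). Mat2a lies at 960 and 874 bases in shTbl1xr1 1 and 2, and Cbs reaches 1943, 1765 and 1798 bases in shTbl1xr1 1, shTbl1xr1 2 and shNC 1.

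Enzymes of the reactions around the cycle were read from 6 lists with 61 genes, of which 59 were tested (Aldh1l2 and Slc7a11 were too low). No gene of these lists passed an adjusted p of 0.05 in edgeR, and DESeq2 called 1 (Adi1). Below an unadjusted p of 0.05 there were 7 genes with higher and 0 with lower levels, where 7.9% of all tested genes were higher and 3.71% lower (11.6% in either direction). The groups did not overlap for 5 genes, all higher in shTbl1xr1, where 3.88% of all tested genes were higher and 3.37% lower without overlap. The median log2 fold change over the 59 genes was 0.19, with 40 positive and 19 negative. Over all tested genes it was 0.01, with 7037 positive and 6871 negative.

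Within the cycle itself, 5 of 9 further enzymes had positive and 4 negative log2 fold changes, with a median of 0.08. Among 8 other users of methyl groups, 6 values were positive and 2 negative, with a median of 0.30. Tpmt, which methylates thiopurines, had 92.3, 97.5, 57.2 and 60.8 CPM in shTbl1xr1 1 to 4, against 66.9, 51.7, 50.3 and 50.5 CPM in shNC 1 to 4. The shallow pair lay above every shNC library, and shTbl1xr1 3 and 4 lay within the shNC range. Between the groups the log2 fold change of Tpmt was 0.49 (SE 0.21; edgeR adjusted p = 0.426), and on log2 TPM the sign turned to -0.49.

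The choline, betaine and folate list, which feeds methyl and other carbon units into the cycle, had 9 positive and 3 negative log2 fold changes. Shmt2, the mitochondrial serine hydroxymethyltransferase, had 385, 302, 207 and 244 CPM in shTbl1xr1 1 to 4, against 188, 178, 163 and 187 CPM in shNC 1 to 4. All shTbl1xr1 libraries lay above all shNC libraries (log2 fold change 0.67, SE 0.21, adjusted p = 0.345). Aldh1l1, a cytosolic dehydrogenase of formyl folate, had 1093, 978, 598 and 1036 CPM in shTbl1xr1 1 to 4, against 549, 667, 461 and 591 CPM in shNC 1 to 4, with only shTbl1xr1 3 inside the shNC range (0.71, SE 0.24, adjusted p = 0.377).

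In methionine salvage and polyamine synthesis 9 of 10 genes had positive log2 fold changes, with a median of 0.44. Against shNC, the log2 differences of the 10 ran from 0.028 (Amd1) to 1.51 (Adi1) in the shallow pair. In shTbl1xr1 3 and 4 they ran from -0.147 (Amd1) to 0.467 (Sat1). Adi1, a dioxygenase of the salvage route that returns methylthioadenosine to methionine, had 231, 209, 102 and 102 CPM in shTbl1xr1 1 to 4, against 80.7, 61.4, 77.7 and 88.2 CPM in shNC 1 to 4. The groups did not overlap and the shallow pair was highest (log2 fold change 1.06, SE 0.30; edgeR adjusted p = 0.32). In DESeq2 it passed, with an adjusted p of 0.0466. Sat1, which acetylates polyamines, had 0.49 (SE 0.20, adjusted p = 0.412), and its sign turned to -0.05 on log2 TPM.

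Downstream of cysteine, 8 of 11 genes had positive log2 fold changes. Against shNC, the log2 differences of the 11 ran from -0.305 (Got1) to 1.40 (Ethe1) in the shallow pair. In shTbl1xr1 3 and 4 they ran from -0.709 (Csad) to 0.168 (Sqor). Ethe1, a mitochondrial enzyme of sulfide oxidation, had 112, 85.1, 34.7 and 40.4 CPM in shTbl1xr1 1 to 4, against 36.3, 33.2, 42.1 and 34.8 CPM in shNC 1 to 4. Only the shallow pair stood apart (log2 fold change 0.89, SE 0.35, adjusted p = 0.408). Gclm, the modifier subunit of the enzyme that starts glutathione synthesis, had 231, 303, 190 and 164 CPM in shTbl1xr1 1 to 4, against 162, 158, 163 and 163 CPM in shNC 1 to 4. All 4 shTbl1xr1 libraries were above shNC, shTbl1xr1 4 by a margin below 1 CPM (0.46, SE 0.21, adjusted p = 0.426). On log2 TPM its sign turned to -0.16.

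The CDP-choline and CDP-ethanolamine routes, which supply phosphatidylcholine and phosphatidylethanolamine beside Pemt, had 3 positive and 6 negative log2 fold changes, with a median of -0.07. Selenoi, an ethanolamine phosphotransferase, had 0.29 (SE 0.14, adjusted p = 0.428), with a turned sign of -0.49 on log2 TPM, and Etnk1, an ethanolamine kinase, had -0.27 (SE 0.20, adjusted p = 0.566).

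**Figure D5:**
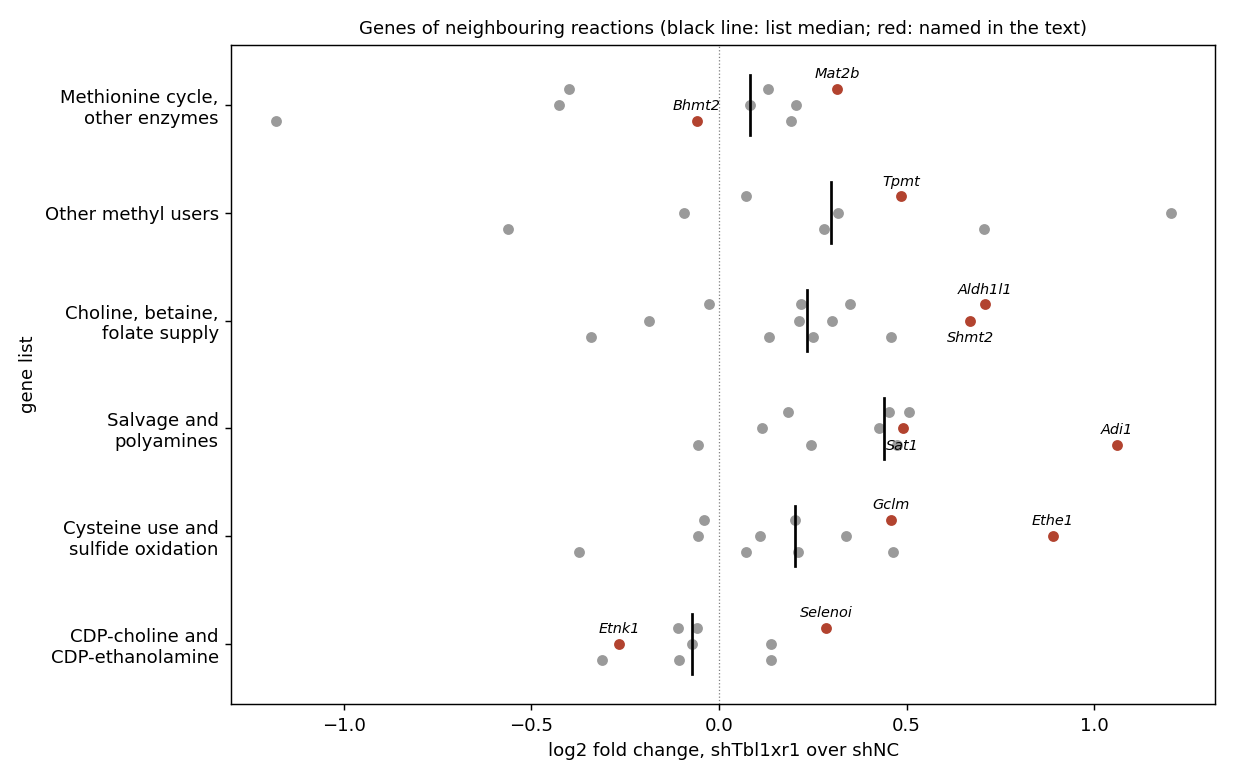
Log2 fold change of shTbl1xr1 over shNC (x axis) for the 59 tested genes of 6 lists of neighbouring reactions (y axis); each point is a gene, red points are genes described in the text and the black line is the list's median. Medians run from -0.07 for the CDP-choline and CDP-ethanolamine routes to 0.44 for methionine salvage and polyamines.

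For each member the tested gene closest in pattern was found as the smallest root mean square difference between log2 levels centred over the 8 libraries, among 9201 candidates. Cth was closest to Ctns, the lysosomal exporter of cystine, at 0.11. Ctns had 11.2 ± 0.42 CPM in shTbl1xr1 and 6.48 ± 0.67 CPM in shNC (SD, n = 4 each). Since these genes were picked for their likeness to a member over the same 8 libraries, their levels are a description and carry no separate test. Gnmt was closest to Shmt2 (0.14), Mat1a to the replication helicase gene Mcm6 (0.08), Mat2a to Stat5a (0.12), Ahcy to Acbd5 (0.08), Bhmt to Phyhd1 (0.18), Cbs to Creld1 (0.13), Gamt to Mid1ip1 (0.17) and Pemt to the ribosomal protein gene Rps14 (0.09). Among the members themselves Bhmt and Cth were the closest, at 0.33, and Mat1a and Gamt the farthest apart, at 1.04.

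Markers of other liver cells were read beside these values, since in bulk RNA fewer cells of a type and less RNA per cell cannot be told apart. The 5 hepatocyte markers summed to 52640 to 90250 CPM in shTbl1xr1 and 54360 to 73810 CPM in shNC. Libraries shTbl1xr1 1, 2 and 4 (79790, 90250 and 76880 CPM) lay above every shNC library and shTbl1xr1 3 lay below every one. Kupffer cell and monocyte markers (7) summed to 197 to 652 CPM in shTbl1xr1 and 482 to 787 CPM in shNC, stellate cell markers (6) to 97.8 to 474 and 219 to 406 CPM, and endothelial markers (6) to 91.8 to 186 and 159 to 189 CPM. In all 3 lists the shallow pair was below every shNC library. No marker sum was adjusted for the trend with gene length in the shallow pair, and the part of that trend was not tested. Bile duct markers (6) summed to 37.1 to 236 CPM in shTbl1xr1 and 31.7 to 118 CPM in shNC, and neutrophil markers (4) to 2.38 to 11.9 and 2.52 to 7.28 CPM. Lymphocyte markers (6) had low sums of 1.97 to 3.03 and 3.22 to 4.38 CPM, with every shTbl1xr1 library below every shNC library. Of the 2 lymphocyte markers tested, 1 had a positive and 1 a negative log2 fold change. No tested marker was called, where only 2 of the 6 lymphocyte markers and 3 of the 4 neutrophil markers were tested. All hepatocyte markers were above 0 in every library, while 2 lymphocyte markers were at 0 in each shallow library. The part of cell composition in the higher Gnmt, Gamt, Pemt and Bhmt of the shallow pair was not tested.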

How the data were processed

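Total RNA of mouse liver (TRIzol) was sequenced as 8 MGIEasy libraries, per the labels' protocols. Tools listed in the submitters' processing notes are STAR, RSEM and DESeq2 1.30.1, with mm10 as build. For annotation release and strand setting, nothing was given in the sources used here. Each deposited table holds, per the file headers, an expected count, a TPM and an effective length per gene. TPM is a level per transcript length, normalised to a fixed total in each library by the authors' RSEM run.

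Expected counts were rounded, filtered by filterByExpr and scaled by TMM, and shTbl1xr1 was compared with shNC by edgeR 4.0.16 (R 4.3.3; quasi-likelihood F test, robust, no covariate), with Benjamini-Hochberg adjustment over 13908 genes and a threshold of 0.05. CPM are TMM-scaled; log2 levels used a prior count of 2. Symbols and coordinates are from GENCODE vM21 (mm10). Replicate numbers are given without the animal behind each library, so the p-values describe the spread between libraries, which may be technical.

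Members and lists were chosen with earlier results of these data known. Named were Tbl1xr1, the members, Mat2b, Bhmt2, per list the genes past the threshold or else the 2 with the smallest p, and the nearest gene per member with a mean CPM of at least 5; 2 genes that this rule names are not reported here. Alternatives were other scalings, filters, tools (DESeq2 1.42.0, limma 3.58.1, sva 3.50.0), a replicate block and left-out libraries; removal of the length trend and a limma test of log2(TPM + 1) were added after the data were seen. On simulated counts for shTbl1xr1 against shNC (13908 genes), edgeR recovered 21% of the 2-fold changes put in and 82% of the 4-fold ones. It made 5 false calls there. Most 2-fold changes, and some 4-fold ones, were thus missed at this size.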

Additional observations from a re-analysis of the deposited data

Results flagged for a closer look

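Among 36 sets of 4 libraries examined (CPM and effective length of the 9 members in each group), 3 held a library far from the other 3, where chance alone gives about 1 in 20. Mat2a had 79.99 CPM in shNC 3, against 118.6 to 124.5 CPM in the other shNC libraries. The effective length of Mat2a was 1867 bases in shNC 1, against 2500 to 2568 bases in the other shNC libraries. The effective length of Cbs was 1798 bases in shNC 1, against 1049 to 1124 bases in the other shNC libraries.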

How the results depend on the processing

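No member passed over all genes under 18 of the 21 alternatives. With DESeq2 and with 1 surrogate variable, 1 member passed (Cth), and with the shallow pair alone against shNC 6 did (Mat2a lower; Gnmt, Bhmt, Cth, Gamt and Pemt higher), at a setting where 6094 of all genes passed. Genes of the neighbouring reactions passed in number 0 in edgeR with all libraries, 1 with DESeq2 and 27 with the shallow pair alone. All genes past the threshold numbered 7, against 4 when scaled by size alone, 276 with DESeq2, 33 with limma-voom, 13 without a filter, 42 with 1 surrogate variable, 29 with the length trend removed and 1 on log2 TPM, and 0 to 34 with 1 library left out (2, 3, 3 and 34 without shTbl1xr1 1 to 4; 0, 0, 2 and 0 without shNC 1 to 4). Members higher at an unadjusted p under 0.05 numbered 4 with all libraries and 1 to 5 with 1 left out. Members lower numbered 0 there, 1 when scaled by size alone, with limma-voom and with the shallow pair alone, and 2 on log2 TPM. The share of all genes at that unadjusted p was counted only in the main fit. The causes were not tested. The sign of Mat1a turned with 1 surrogate variable (0.16), shTbl1xr1 3 and 4 alone (0.16) and the length trend removed (0.021), that of Mat2a with 1 surrogate variable (0.001) and shTbl1xr1 3 and 4 alone (0.13), that of Cbs with limma-voom (0.043) and the shallow pair alone (0.16), and that of Pemt with shTbl1xr1 3 and 4 alone (-0.055). With 1 library left out, log2 fold changes ran from -0.31 to 0.11 for Mat1a, -0.258 to 0.041 for Cbs and -0.12 to 0.08 for Bhmt2. Mat2b turned when scaled by size alone (-0.019), and on log2 TPM Mat2b (-0.20), Selenoi (-0.49), Gclm (-0.16), Sat1 (-0.049) and Tpmt (-0.49) turned. Scaling by size alone moved the median of all genes to -0.27 and log2 TPM to -0.34; the members' medians there were 0.28 and 0.13. Libraries of the same number did not deviate together throughout (r of 0.38, -0.07, 0.31 and 0.12 over 13908 genes for numbers 1 to 4; shTbl1xr1 1 and 3 matched their own number best, 2 and 4 did not), so the numbers were not taken as pairs. With a replicate block, 5 genes passed in all and 0 members (Cth 0.83, adjusted p = 0.35 by edgeR). Lowest in depth were shTbl1xr1 1 and 2, where Mat2a had 536 and 513 counts. The part of depth was not tested.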
